A study of Mus musculus with 8 samples.

Results

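Collagens are the secreted or membrane-bound proteins whose alpha chains wind into a triple helix. Fibrillar collagens (types I, II, III, V, XI, XXIV and XXVII) build the rope-like fibres of skin, bone, tendon and cartilage. Type IV makes the sheet-like network of basement membranes, type VI makes beaded microfibrils, and the FACIT collagens (fibril-associated collagens with interrupted triple helices) decorate fibrils made by other types. Fibroblasts are the classical producers of fibrillar collagen, whereas early embryonic cells are known for basement membrane proteins.

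The set described here is every gene whose symbol has the form of a collagen alpha chain, measured on a mouse whole-genome oligonucleotide array. It held 42 genes of 18193 measured, read by 82 probe sets, and for each gene the brightest probe set was used. By class, 11 were fibrillar, 6 were basement membrane chains, 9 were FACIT, 5 were microfibrillar and 4 were transmembrane. The other 7 were the short-chain network chains Col8a1, Col8a2 and Col10a1, the multiplexins Col15a1 and Col18a1, the anchoring fibril chain Col7a1, and Col26a1.

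All cells carried no engineered allele and were labelled wt. Primary mouse embryonic fibroblasts (MEF, 2 arrays) were grown in medium with fetal bovine serum. Neural precursor cells (NPC, 3 arrays) had been differentiated in culture from ES cells through embryoid bodies and selection in ITSFn medium, and were kept in FGF2 and EGF2. ES cells of the V6.5 line (3 arrays) had been grown with leukemia-inhibiting factor and serum on irradiated MEFs and then passaged on gelatin with no feeders. The labels give no embryo age or strain for MEF. Whether replicate arrays stem from independent cultures is not stated, so the p-values reflect array-to-array spread that could be technical. Values below are log2(intensity + 16) after quantile normalisation, on which 4 is the lowest possible value and 6.06 was the median over all genes and arrays. Folds on this scale understate the change of dim genes, and the number of arrays limits the precision.

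The markers followed the labels. Thy1, a fibroblast surface protein, was at 11.37 and 11.27 in MEF and below 6.3 on every other array. Fabp7 of radial glia was at 12.58 to 13.18 in NPC and below 6.4 elsewhere, and Pou5f1 of pluripotent cells was at 11.95 to 12.08 in ES cells and below 4.9 elsewhere. Over the 42 chains the arrays correlated at 0.997 between the MEF arrays, 0.871 to 0.958 among NPC and 0.926 to 0.957 among ES cells, against 0.361 to 0.624 between cell types. The array NPC 1 gave the lowest NPC value for 25 of the 42 chains, and the NPC arrays spanned more than 1 log2 unit for 6 chains.

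Most differences in collagen expression set the fibroblasts apart from the other cells. A call required a limma adjusted p under 0.05 together with a log2 difference of 1 or more in size. Of the 42 chains, 22 were higher and 3 lower in MEF than in ES cells, against 12.2% of all genes higher, 12.8% lower and 25% in either direction. Against NPC, 22 were higher and 0 lower in MEF, where 10.5% of all genes were higher, 7.95% lower and 18.5% called in all. Between NPC and ES cells, 3 chains were higher and 9 lower in NPC, where 10% of all genes were higher, 12.9% lower and 22.9% called. The median log2 difference over the 42 chains was 1.60 for MEF minus ES (-0.04 over all genes), 1.25 for MEF minus NPC (-0.01 over all genes) and -0.13 for NPC minus ES (-0.05 over all genes). MEF and NPC were both set against the same ES arrays, so these counts share their controls.

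In all, 20 of 42 chains (47.6%) were higher in MEF than in both other cell types, against 6.22% of all genes. Col18a1, Col13a1 and Col9a2 (3 of 42, 7.14%) were higher in ES cells than in both others, against 7.77% of all genes. No chain (0 of 42) was called higher in NPC than in both others, against 4.21% of all genes. Col9a3 alone was higher in NPC than in both others at an unadjusted limma p under 0.05. Its limma adjusted p was also under 0.05 in both comparisons (0.0118 with ES cells and 0.0108 with MEF), and it missed the minimum size. A further 16 chains (38.1%) were called in no comparison, against 63.1% of all genes.

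**Figure D1:**
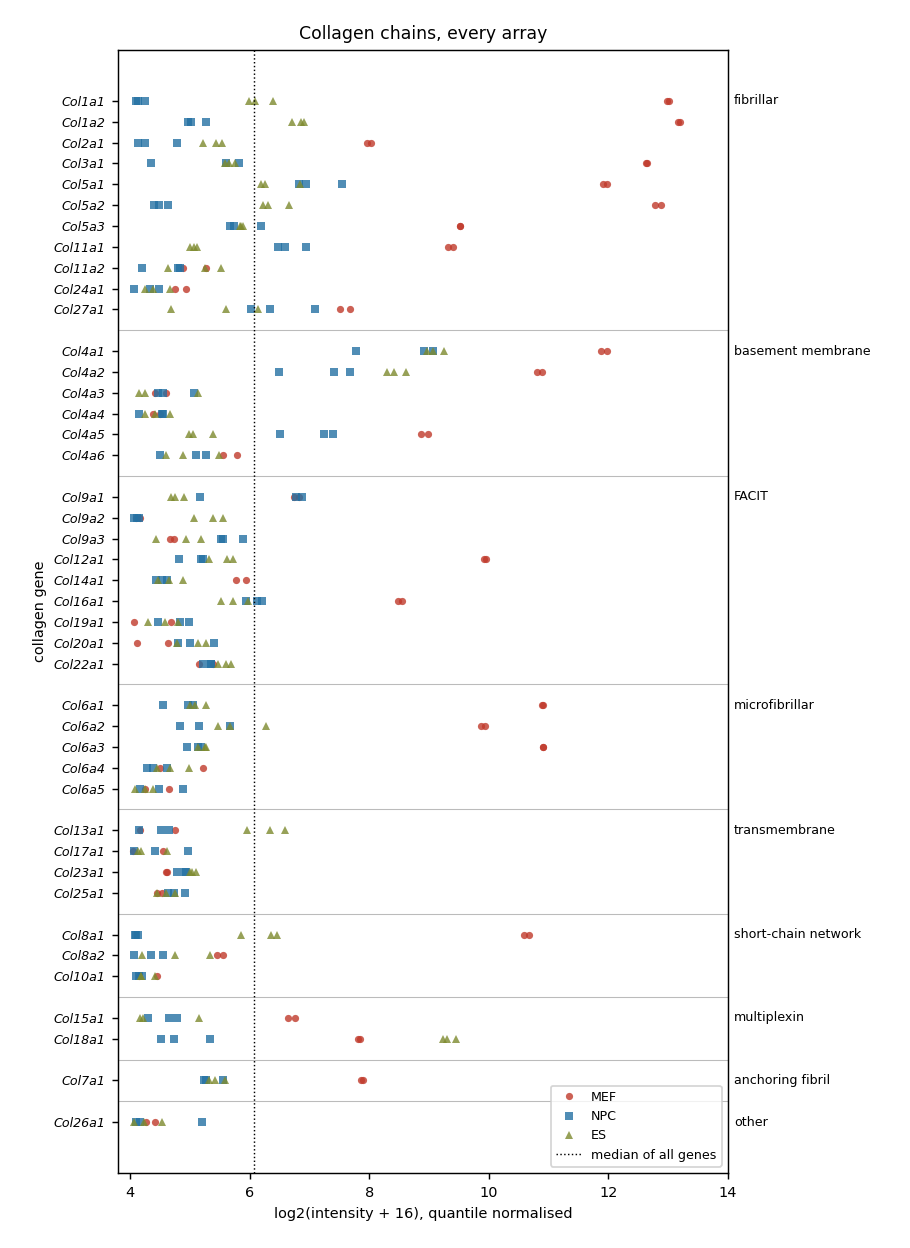
Log2(intensity + 16) after quantile normalisation of the 42 collagen genes on each of the 8 arrays (x axis), with genes grouped by class (y axis) and 1 point for each array of MEF (circles), NPC (squares) and ES cells (triangles). The dotted line is the median of all genes at 6.06; 20 chains stood higher in MEF than in both other cell types, and 19 had all 3 group means below the line.

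The promoters of chains that differ in the cell type with the highest level are shown first, to set their letters side by side: Col1a2 and Col8a1 were highest in MEF, and Col18a1 and Col9a2 in ES cells. Windows were taken from RefSeq (GRCm38.p6) and matched 33 of the 42 chains. Each line gives the 120 bases before the annotated start, 5′ to 3′ on the gene's strand, with matches on either strand to the TATA, CCAAT or GC box in capitals, and Col18a1 has 2 annotated starts. The Col1a2 stretch is chr6:4505498-4505617 on the plus strand and the Col8a1 stretch chr16:57754738-57754857 on the minus strand. The Col18a1 stretches are chr10:77166531-77166650 and chr10:77113706-77113825 on the minus strand, and the Col9a2 stretch is chr4:121039446-121039565 on the plus strand.
Col1a2: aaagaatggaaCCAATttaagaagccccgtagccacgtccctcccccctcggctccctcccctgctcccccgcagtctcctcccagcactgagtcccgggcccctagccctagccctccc
Col8a1: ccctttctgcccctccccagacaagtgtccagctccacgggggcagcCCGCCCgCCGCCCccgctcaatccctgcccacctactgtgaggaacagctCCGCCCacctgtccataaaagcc
Col18a1, upstream start: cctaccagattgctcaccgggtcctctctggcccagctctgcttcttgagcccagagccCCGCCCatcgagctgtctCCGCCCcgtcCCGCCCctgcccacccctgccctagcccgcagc
Col18a1, downstream start: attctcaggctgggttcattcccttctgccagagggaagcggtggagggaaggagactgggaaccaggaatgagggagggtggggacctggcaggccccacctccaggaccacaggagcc
Col9a2: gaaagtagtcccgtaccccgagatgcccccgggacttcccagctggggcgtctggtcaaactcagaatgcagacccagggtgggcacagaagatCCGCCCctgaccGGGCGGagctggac

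Searched over the 250 bases before each start, the GC box GGGCGG was found in 20 of the 33 chains (60.6%) and in 35.4% of 27025 genes with a window. Those genes were not limited to the 18193 measured here, and a gene with several starts counted if any of them matched. The shares are thus not from like sets. CCAAT was found in 13 of 33 (39.4%, against 37.5%) and the TATA box TATAAA in 5 of 33 (15.2%, against 14.3%). Among the 15 matched chains highest in MEF, 10 held the GC box, 8 the CCAAT box and 1 the TATA box, in either orientation. In the printed stretches the GC box lay in Col8a1, in Col9a2 and before the upstream start of Col18a1, so it did not separate these 2 kinds of chain. A match to these letters is a description of the sequence and not a bound site.

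Most fibrillar chains were higher in fibroblasts than in the other cells. Of 11 chains, 9 were higher in MEF than in ES cells and 8 were higher than in NPC, with median log2 differences of 4.30 and 3.65. These shares were 81.8% and 72.7%, against 12.2% and 10.5% of all genes. Type I collagen, the main protein of bone, tendon and skin, is built from the products of Col1a1 and Col1a2. Col1a1 was at 12.97 and 13.02 in MEF, at 4.12, 4.24 and 4.10 in NPC and at 5.98, 6.39 and 6.08 in ES cells. The 3 cell types did not overlap, and the order was MEF, then ES cells, then NPC. The further Col1a1 probe set gave a smaller NPC minus ES difference of -0.36 with overlapping arrays, and the mean of both gave -1.18 in place of -2.00. Col1a2 was at 13.16 and 13.19 in MEF, at 5.02, 5.26 and 4.97 in NPC and at 6.86, 6.90 and 6.71 in ES cells, the same order without overlap. The MEF minus NPC difference was 8.84 ± 0.15 (SE) for Col1a1 and 8.09 ± 0.13 for Col1a2 (limma adjusted p = 2.8e-09 and 2.31e-09).

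Type III and type V chains, which join type I in fibrils, were also high in fibroblasts. Col3a1, the chain of type III collagen, was at 12.64 and 12.65 in MEF, at 4.35, 5.60 and 5.82 in NPC and at 5.59, 5.65 and 5.76 in ES cells. MEF stood apart while NPC and ES cells overlapped, and NPC 1 was the lowest array. Col5a2, the neighbour of Col3a1 in the genome, was at 12.87 and 12.77 in MEF, at 4.40, 4.48 and 4.63 in NPC and at 6.30, 6.65 and 6.22 in ES cells. Unlike Col3a1, it separated NPC from ES cells, with a log2 difference of -1.89 ± 0.14 (limma adjusted p = 5.41e-06). The further Col5a2 probe set did not separate them (-0.14, with overlapping arrays), and the mean of both gave -1.02.

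The partner chains of type V collagen were not called between NPC and ES cells. Col5a1 was at 11.91 and 11.98 in MEF, at 6.83, 7.54 and 6.95 in NPC and at 6.83, 6.25 and 6.19 in ES cells. NPC and ES cells touched at 6.83, and the NPC minus ES difference of 0.68 ± 0.22 did not reach the minimum of 1 (limma adjusted p = 0.0296). Col5a3 was at 9.52 and 9.51 in MEF, at 5.67 to 6.19 in NPC and at 5.83 to 5.88 in ES cells, a log2 difference of 3.65 ± 0.18 for MEF minus NPC. Its other probe set stayed near the bottom of the scale in all cells, at 4.14 in MEF, 4.22 in NPC and 4.11 in ES cells, and the mean of both gave 1.78. Of the type V chains, Col5a2 alone was called between NPC and ES cells, and whether the 3 chains differ in that step was not tested.

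The cartilage collagens of the fibrillar class parted. Col2a1, the chain of type II collagen, was at 7.97 and 8.02 in MEF, at 4.12, 4.77 and 4.25 in NPC and at 5.54, 5.43 and 5.21 in ES cells. MEF was above both without overlap (6.07-fold over ES cells and 12.2-fold over NPC). Its NPC minus ES difference of -1.01 ± 0.20 lay at the minimum, and that call ended without ES 1 (-0.94), MEF 1 or MEF 2 (-0.99 each), NPC 1 (-0.88) or NPC 3 (-0.95) and with median centring (-0.98). Col11a1, the type XI chain that nucleates thin cartilage fibrils, was at 9.32 and 9.40 in MEF, at 6.47, 6.95 and 6.58 in NPC and at 4.99, 5.12 and 5.07 in ES cells. It was the fibrillar chain with NPC called above ES cells (1.61 ± 0.15, limma adjusted p = 2.38e-05), and its further probe set gave group means of 9.43 in MEF, 6.31 in NPC and 5.03 in ES cells. Col11a2, its partner, stayed between 4.19 and 5.52 on all arrays and was not called.

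Col27a1, of the developing cartilage, was at 7.50 and 7.67 in MEF, at 6.03, 7.09 and 6.34 in NPC and at 6.14, 5.60 and 4.67 in ES cells. MEF was above ES cells (2.11 ± 0.43, limma adjusted p = 0.00272), and NPC overlapped ES cells. The NPC minus ES difference was 1.01 ± 0.38 and just missed the test (limma adjusted p = 0.0555), and it passed without ES 1 (1.35) and without NPC 1 (1.25). It also passed with the replicate block (limma adjusted p = 0.0445), trimmed mean scaling (0.0333), averaged probe sets (0.0046) and the dimmest genes left out (0.0406). MEF minus NPC was 1.10 ± 0.43 (limma adjusted p = 0.0712) and passed without ES 3 (1.11) and without NPC 2 (1.42). It also passed with array weights (1.05), median centring (1.55), the deposited scaling (1.89) and a fit of these groups alone (1.10). Col24a1 stayed between 4.06 and 4.93 on all arrays.

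Other cartilage genes were mostly dim. Of 12 on a cartilage list, 3 were higher in MEF than in ES cells (Sox9, Prg4 and Cnmd) and 0 lower. That is 25% called, and 25% of all genes were called. Against NPC, 5 were higher and 3 lower in MEF (66.7% called, against 18.5% of all genes). Between NPC and ES cells, 3 were higher and 2 lower in NPC (41.7% called, against 22.9% of all genes). On the list, 11 had a MEF mean below the median of all genes. Sox9, Sox5 and Sox6, transcription factors that drive Col2a1, Col9 and Col11 genes in chondrocytes, were highest in NPC instead: Sox9 was at 5.81 and 5.73 in MEF, at 7.67 to 8.76 in NPC and at 4.15 to 4.47 in ES cells. Acan, the main cartilage proteoglycan, was at 6.61 and 6.45 in MEF, at 4.60 to 5.01 in NPC and at 5.95 to 6.13 in ES cells. The part of any cartilage-like cells in the Col2a1 and Col11a1 values was not tested.

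Of the 6 basement membrane chains, Col4a1, Col4a2 and Col4a5 were higher in MEF than in both other cell types. The pairs Col4a1 with Col4a2, Col4a3 with Col4a4 and Col4a5 with Col4a6 are neighbours in the genome. Col4a1, part of the ubiquitous type IV network, was at 11.88 and 11.98 in MEF, at 7.78, 9.06 and 8.92 in NPC and at 9.25, 8.97 and 9.07 in ES cells. MEF stood apart by 3.34 ± 0.32 from NPC and 2.83 ± 0.32 from ES cells, and NPC overlapped ES cells in this probe set. In the further Col4a1 probe set NPC lay below ES cells without overlap (-0.86). It was at 6.44, 7.09 and 7.61 in NPC and at 7.80, 7.83 and 8.10 in ES cells.

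Col4a2, whose product pairs with that of Col4a1, was at 10.80 and 10.88 in MEF, at 6.48, 7.68 and 7.41 in NPC and at 8.30, 8.41 and 8.62 in ES cells. NPC lay below ES cells without overlap (-1.25 ± 0.26, limma adjusted p = 0.00345), a call that ended without NPC 1 (-0.90) and with array weights (-0.99). Both genes had NPC 1 as the lowest array by more than 0.9. Primitive and parietal endoderm is an early embryonic cell type that secretes much basement membrane. It was checked by 12 genes, of which 8 (66.7%, against 12.9% of all genes) fell in NPC relative to ES cells and none rose. Lama1 (-5.11), Dab2 (-3.29) and Gata6 (-2.32) fell most. The summed normalised intensity of the 12 was 2219 to 3197 in NPC and 5358 to 6690 in ES cells (13885 to 14032 in MEF). Sparc weighed most in that sum, at 13.33 and 13.30 in MEF, 10.71 to 11.11 in NPC and 11.10 to 11.66 in ES cells. The factors Sox17 and Sox7 were at 4.24 to 5.04 in MEF, 4.37 to 5.10 in NPC and 5.73 to 6.45 in ES cells. Gata6, a further factor on the list, was at 6.77 and 6.95 in MEF, 4.48 to 4.83 in NPC and 6.81 to 7.07 in ES cells. For MEF minus ES, 3 of the 12 genes were higher and 3 lower (50% called, against 25% of all genes). The part of such endoderm cells in the type IV values was not tested.

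Col4a5, on the X chromosome, was at 8.86 and 8.98 in MEF, at 6.51, 7.39 and 7.24 in NPC and at 5.05, 4.98 and 5.39 in ES cells. It rose in NPC over ES cells by 1.91 ± 0.23 (limma adjusted p = 0.000122), opposite to Col4a2. Its neighbour Col4a6 was at 5.56 and 5.78 in MEF, at 4.50 to 5.26 in NPC and at 4.60 to 5.48 in ES cells and was called in no comparison. Col4a3 and Col4a4, chains of the kidney glomerular membrane, stayed between 4.15 and 5.13 on all arrays.

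**Figure D2:**
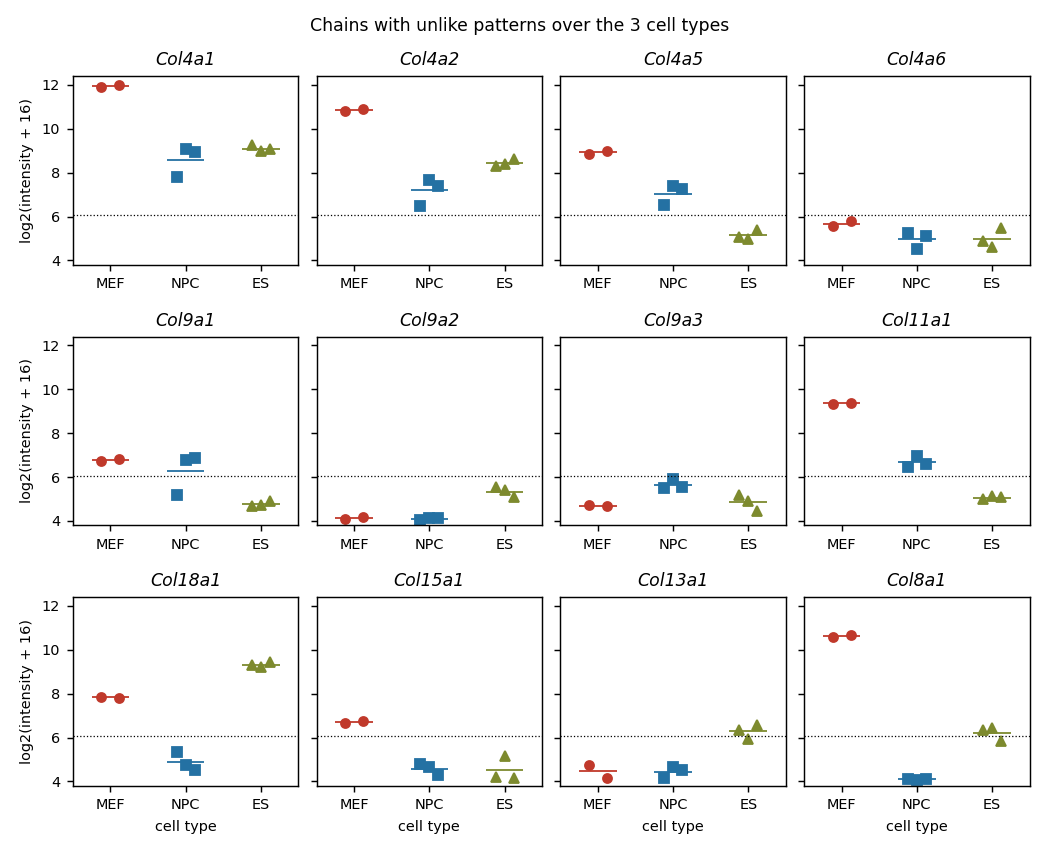
Log2(intensity + 16) on each array (points) and group mean (lines) for 12 collagen genes in MEF, NPC and ES cells, with the median of all genes at 6.06 as a dotted line. Col4a5 was ordered MEF, NPC, ES cells while its neighbour Col4a6 stayed below the line, and Col18a1, Col13a1 and Col9a2 were highest in ES cells.

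The microfibrillar class moved as a block of 3. Type VI collagen is assembled from the chains of Col6a1, Col6a2 and Col6a3, and all 3 were higher in MEF than in both other cell types. Col6a1 was at 10.89 and 10.90 in MEF, at 4.55, 5.05 and 4.96 in NPC and at 5.09, 5.26 and 5.01 in ES cells. Col6a3 was at 10.90 and 10.91 in MEF, at 4.94, 5.14 and 5.19 in NPC and at 5.24, 5.27 and 5.13 in ES cells. Col6a2 was at 9.94 and 9.86 in MEF, at 5.14, 5.68 and 4.82 in NPC and at 5.67, 6.27 and 5.47 in ES cells, from a probe set whose sequence is shared (suffix _x_at). Its further probe set had group means of 10.87 in MEF, 4.30 in NPC and 5.04 in ES cells, a MEF minus ES difference of 5.83. MEF stood clear of all other arrays for each, with MEF minus ES differences of 5.78 ± 0.19, 4.10 ± 0.29 and 5.69 ± 0.15 for Col6a1, Col6a2 and Col6a3. None of the 5 chains was called between NPC and ES cells (unadjusted limma p of 0.0508 for Col6a2 and above 0.1 for the others). Col6a4 and Col6a5 stayed between 4.07 and 5.22.

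Of the 9 FACIT chains, 4 were higher (44.4%) and 1 lower (11.1%) in MEF than in ES cells. Against NPC, 3 were higher (33.3%) and 0 lower in MEF. Over all genes, 12.2% were higher and 12.8% lower for MEF minus ES, and 10.5% were higher for MEF minus NPC. The median log2 differences over the class were -0.15 for MEF minus ES and 0.02 for MEF minus NPC. Col12a1, found on the surface of type I fibrils, was at 9.94 and 9.93 in MEF, at 4.81, 5.18 and 5.21 in NPC and at 5.72, 5.32 and 5.63 in ES cells. Col16a1 was at 8.48 and 8.54 in MEF, at 6.20, 6.13 and 5.94 in NPC and at 5.71, 5.51 and 5.97 in ES cells. Col14a1 was at 5.93 and 5.77 in MEF, at 4.44 to 4.61 in NPC and at 4.46 to 4.89 in ES cells. MEF was apart in each case, by 4.38 ± 0.19, 2.78 ± 0.18 and 1.18 ± 0.17 from ES cells for Col12a1, Col16a1 and Col14a1. The probe sets of Col12a1 did not share a size: the second probe set had group means of 10.83 in MEF, 4.52 in NPC and 4.81 in ES cells, while the others stayed under 4.7 in all cells. The Col14a1 calls ended when its probe sets were averaged (0.54 from ES cells and 0.66 from NPC). They also ended under a filter on probe set suffixes (0.45 and 0.64). That filter removed its _a_at probe set and left a dimmer one, with a mean of 4.85 in MEF.

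The chains of type IX collagen, a cartilage FACIT that needs the products of Col9a1, Col9a2 and Col9a3, each had another pattern. Col9a1 was at 6.75 and 6.83 in MEF, at 5.17, 6.78 and 6.87 in NPC and at 4.69, 4.74 and 4.90 in ES cells. MEF and 2 of the NPC arrays were together and above ES cells, and NPC 1 lay between, with differences from ES cells of 2.01 ± 0.44 in MEF and 1.49 ± 0.40 in NPC (limma adjusted p = 0.00468 and 0.0122). Col9a2 was at 4.10 and 4.17 in MEF, at 4.06, 4.14 and 4.12 in NPC and at 5.56, 5.39 and 5.07 in ES cells, so it did not share the order of Col9a1. ES cells were above both by a small step (MEF minus ES -1.21 ± 0.16 and NPC minus ES -1.23 ± 0.15), and all arrays lay below the median of all genes.

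Col9a3 was at 4.73 and 4.66 in MEF, at 5.52, 5.89 and 5.55 in NPC and at 5.18, 4.93 and 4.44 in ES cells, highest in NPC without overlap. In both further probe sets NPC and ES cells overlapped. The group means were 5.31 in NPC and 4.64 in ES cells for 1 of them, and 4.51 and 4.43 for the other. The differences of the brightest probe set did not reach the minimum. They were 0.80 ± 0.21 for NPC minus ES (limma adjusted p = 0.0118) and -0.95 ± 0.24 for MEF minus NPC (limma adjusted p = 0.0108). The difference from MEF passed without NPC 1 (-1.02) or NPC 3 (-1.01), with median centring (-1.03), under trimmed mean scaling (-1.13) and with the replicate block (-1.08). Col19a1, Col20a1 and Col22a1 stayed between 4.07 and 5.69 on all arrays and were not called.

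The multiplexins, which carry a cleavable end fragment and lie in basement membrane zones, differed from each other. Col18a1, the source of endostatin, was at 7.85 and 7.81 in MEF, at 5.34, 4.74 and 4.51 in NPC and at 9.29, 9.23 and 9.46 in ES cells. The cell types did not overlap: NPC was 22-fold below ES cells (-4.46 ± 0.20, limma adjusted p = 2.14e-07), the largest difference of any chain between those 2, and MEF was 2.82-fold below ES cells. Its further probe set gave group means of 7.28 in MEF, 4.50 in NPC and 9.42 in ES cells. The MEF minus ES call ended with the deposited scaling (-0.70). Col15a1 was at 6.64 and 6.75 in MEF, at 4.79, 4.65 and 4.30 in NPC and at 4.21, 5.15 and 4.17 in ES cells, higher in MEF and not separated between the others.

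Among epithelial genes, which ES cells share in part, 5 of 10 fell in NPC relative to ES cells (50%, against 12.9% of all genes) and none rose. Cdh1, the epithelial cadherin, fell by 6.60, Epcam by 6.55 and Krt18 by 5.02 on the log2 scale. Their summed normalised intensity was 466 to 489.6 in MEF, 67.5 to 109 in NPC and 4678 to 5058 in ES cells, the order of Col18a1. The part of epithelial character in the Col18a1 value was not tested.

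Of the transmembrane collagens, which sit in the cell membrane, Col13a1 alone was called. It was at 4.75 and 4.16 in MEF, at 4.14, 4.65 and 4.52 in NPC and at 6.34, 5.95 and 6.59 in ES cells. ES cells stood above both without overlap (MEF minus ES -1.84 ± 0.27 and NPC minus ES -1.86 ± 0.24, limma adjusted p = 0.00036 and 0.00016), and its probe set was the single one for this gene. Col17a1 of hemidesmosomes, Col23a1 and Col25a1 stayed between 4.05 and 5.10 on all arrays.

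Short-chain network collagens form hexagonal lattices under endothelium and in the cornea. Col8a1 was at 10.59 and 10.67 in MEF, at 4.10, 4.07 and 4.12 in NPC and at 6.35, 6.45 and 5.85 in ES cells. The order was MEF, ES cells, NPC without overlap (MEF minus NPC 6.53 ± 0.19 and NPC minus ES -2.12 ± 0.17), and both further probe sets kept the order of the group means. In 1 of them NPC and ES cells overlapped, at 4.07 to 4.55 in NPC and 4.23 to 5.08 in ES cells. Col8a2 was at 5.55 and 5.45 in MEF, at 4.06, 4.35 and 4.55 in NPC and at 4.75, 4.20 and 5.34 in ES cells. It was called for MEF minus NPC (1.18 ± 0.30, limma adjusted p = 0.0123), a call that ended without MEF 1 (1.11) or MEF 2 (1.20), and for MEF minus ES only without ES 3 (1.05) and at the deposited scaling (1.08). Col10a1, of hypertrophic cartilage, stayed between 4.10 and 4.45, and Col26a1 between 4.06 and 5.20.

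Col7a1, the anchoring fibril chain that fastens skin epithelium to the dermis, was at 7.86 and 7.90 in MEF, at 5.24, 5.55 and 5.27 in NPC and at 5.42, 5.32 and 5.58 in ES cells. MEF stood apart from both (5.75-fold over NPC and 5.41-fold over ES cells), and NPC and ES cells overlapped.

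**Figure D3:**
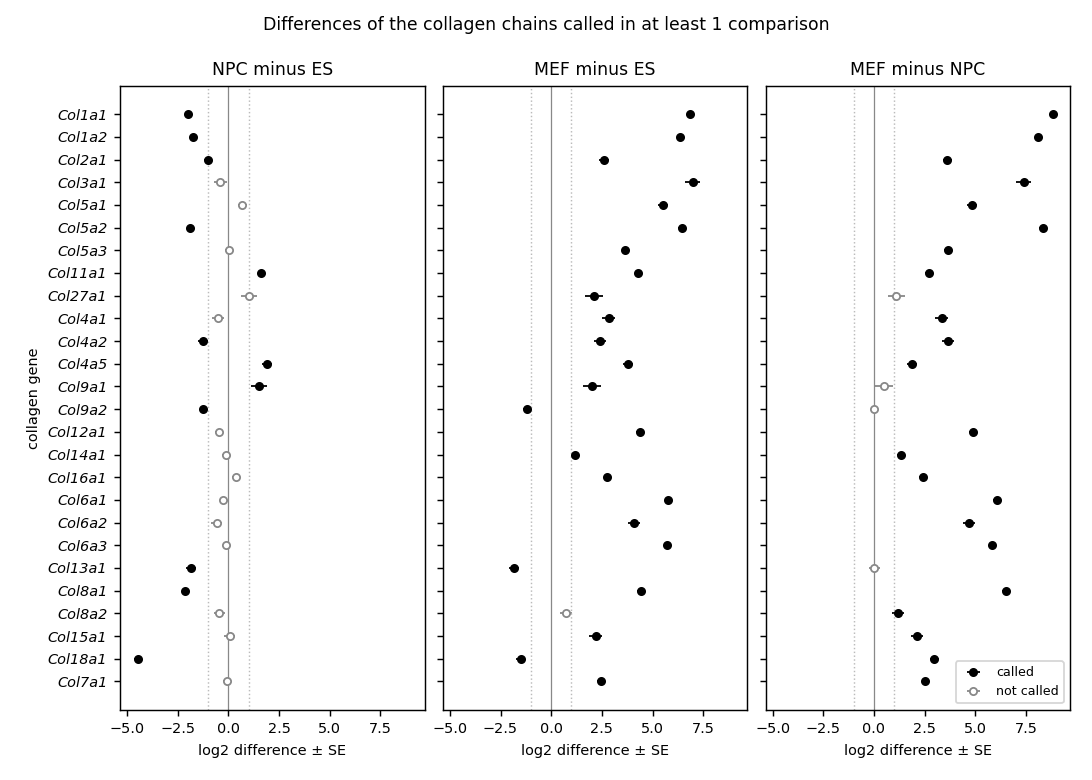
Log2 differences with their standard errors (x axis) for the 26 collagen genes called in at least 1 comparison (y axis), in NPC minus ES, MEF minus ES and MEF minus NPC, with called genes filled and dotted lines at a difference of 1 in each direction. Col1a1 had the largest difference, 8.84 for MEF minus NPC, and Col18a1 the lowest, -4.46 for NPC minus ES.

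The chains lower in NPC than in ES cells were Col1a1, Col1a2, Col2a1, Col5a2, Col4a2, Col9a2, Col13a1, Col8a1 and Col18a1. Col18a1 and Col4a2 had ES values above 8, and the others lay at or below 6.90 on every ES array. With a pseudocount of 64, which damps low values, 3 of the 12 calls between NPC and ES cells were kept, and 14.4% of all genes were called. Fibroblast markers other than collagen moved along: of 7, 4 were lower in NPC (57.1%, against 12.9% of all genes) and Twist1 was higher, at 1.83. The lower ones were Fn1 (-3.81), Pdgfra (-1.50), Pdgfrb (-1.39) and Thy1 (-1.02). Over the 7 markers, the summed normalised intensity was 17962 to 18404 in MEF, 367 to 484 in NPC and 3295 to 3702 in ES cells. Single genes high in MEF differed in ES cells. Postn, a matrix protein gene, was at 11.71 and 11.82 in MEF, at 4.31 to 4.91 in NPC and at 4.96 to 5.39 in ES cells. Lox, a crosslinking enzyme gene, was at 12.84 and 12.76 in MEF, at 4.17 to 4.84 in NPC and at 8.07 to 8.45 in ES cells. The part of feeder fibroblasts from the earlier ES cell passages in the ES values was not tested. Fewer cells of a type and less RNA in each cell cannot be told apart in these bulk samples.

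Genes listed as markers of other cells were also read in MEF. Of 13 macrophage and blood genes, 8 were higher and 2 lower in MEF than in ES cells, led by Lyz2 (3.98), C1qb (3.45) and Cd53 (2.83), while Cd68 (-1.31) and Laptm5 (-1.56) were lower. Their summed normalised intensity was 1590.05 to 1609.53 in MEF, 125 to 147 in NPC and 659 to 712 in ES cells, and Ptprc, the pan-leukocyte marker, was at 6.37 and 6.05 in MEF. Endothelial genes gave 1 higher, Erg (1.16), and 4 lower of 10 in MEF, with Cdh5 at 4.61 and 4.67. All 10 had a MEF mean below the median of all genes. Of 8 muscle genes, 4 were higher in MEF than in ES cells, led by Actc1 (2.33), Myog (1.76) and Tnnt3 (1.18), and of 6 Schwann and neural crest genes, Pmp22 (3.32) was higher and Erbb3 (-1.93) and Foxd3 (-1.08) were lower. The called share for MEF minus ES was 76.9% of the macrophage and blood genes and 50% of each other list, against 25% of all genes. Whether such cells were present was not tested, nor was their part in the collagen values.

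The genes that fold, cut, crosslink, bind and break down collagen were described from fixed lists. Of 23 genes for folding and modification in the endoplasmic reticulum, 16 were higher and 1 lower in MEF than in ES cells (median log2 difference 1.70). Against NPC, 14 were higher and 1 lower in MEF. These called shares were 73.9% and 65.2%, against 25% and 18.5% of all genes. Creb3l1, a transcription factor of secretory cells, rose by 3.58, the collagen chaperone gene Serpinh1 by 3.40 and P3h4, of a lysine-modifying complex, by 2.95 over ES cells. In NPC against ES cells 5 were higher and 2 lower (30.4% called, not far from the 22.9% of all genes). Colgalt2, a collagen galactosyltransferase gene, rose by 3.27, Serpinh1 by 2.37 and Fkbp14 by 1.82. P4ha2, a prolyl hydroxylase subunit, was 2.95 lower on the log2 scale, at 4.03, 4.68 and 4.75 in NPC and 7.51, 7.41 and 7.39 in ES cells. Serpinh1 was at 12.97 and 12.95 in MEF, at 11.99, 11.86 and 11.93 in NPC and at 9.59, 9.65 and 9.42 in ES cells, so NPC stood well above ES cells for the chaperone while Col1a1 and Col1a2 stood below.

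Of 9 processing and crosslinking genes, 8 were higher in MEF than in ES cells and 7 than in NPC (88.9% and 77.8%, against 12.2% and 10.5% of all genes). Tll1 (4.93), Loxl1 (4.74) and Lox (4.59) led over ES cells. In NPC, 3 were lower than in ES cells (33.3%, against 12.9% of all genes). They were the crosslinking enzyme genes Lox (-3.59) and Loxl1 (-2.03) and the processing enhancer gene Pcolce2 (-2.66). Bmp1, the procollagen C-proteinase, was higher in NPC instead (2.86). It was at 8.62 and 8.50 in MEF, at 7.85, 7.73 and 7.71 in NPC and at 5.04, 4.46 and 5.23 in ES cells.

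Among collagen receptors, 5 of 10 were higher in NPC than in ES cells (50%, against 10% of all genes) and none was lower. Adgrg1, a receptor for type III collagen in the brain, was at 4.82 and 4.55 in MEF, at 8.34, 8.28 and 8.59 in NPC and at 4.67, 4.78 and 4.66 in ES cells. Ddr1, a receptor kinase activated by collagen, rose by 2.45 and Ddr2, its relative that binds fibrillar types, by 2.44 in NPC over ES cells. In MEF, 5 of 10 were higher than in ES cells (50%, against 12.2% of all genes) and 0 lower. Ddr2 (4.26), the uptake receptor Mrc2 (3.62) and the integrin subunit Itgb1 (2.95) led. Against NPC, 3 were higher in MEF and Adgrg1 was lower at -3.72 (40% called, against 18.5% of all genes).

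Of 8 genes for collagenases and other collagen-degrading enzymes, 7 were higher in MEF than in ES cells and 7 than in NPC. Each was 87.5%, against 12.2% and 10.5% of all genes. The membrane-type protease gene Mmp14 was 4.41 above ES cells, Fap 3.65 and the collagenase gene Mmp13 3.46. In NPC, Mmp14 (-1.74) and Mmp2 (-1.73) were lower than in ES cells and none was higher. That is 25% called, near the 22.9% of all genes.

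**Figure D4:**
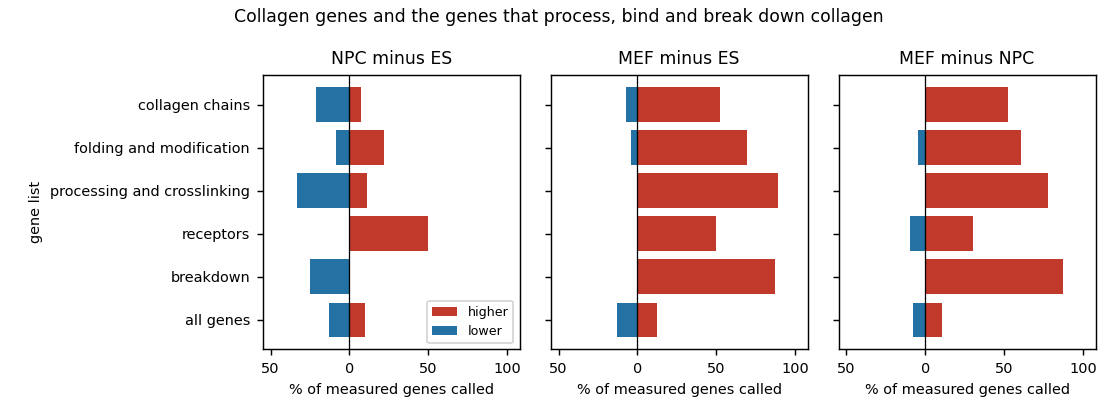
Share of measured genes called higher (bars to the right) and lower (bars to the left) in NPC minus ES, MEF minus ES and MEF minus NPC, in percent, for collagen chains, 4 lists of genes that act on collagen, and all genes. In MEF minus ES the higher share was 52.4% of collagen chains and 12.2% of all genes, and in NPC minus ES the receptors were the list with 5 of 10 higher.

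The 40 further probe sets of the chains gave a second reading. Of the 22 further probe sets for chains called between MEF and ES cells, 21 lay on the same side and 17 of these by at least 1 log2 unit. For MEF minus NPC, 19 of 20 were on the same side, 15 of them by at least 1. For NPC minus ES, 9 of 10 were on the same side, but only 5 of them by at least 1. The exceptions were 1 probe set each of Col14a1 (-0.01 for MEF minus ES), Col5a3 (-0.08 for MEF minus NPC) and Col1a2 (0.09 for NPC minus ES). The 16 chains called in no comparison had array values between 4.05 and 5.89, all below the median of all genes, and differences between -0.95 and 0.80. With Col9a2, Col14a1 and Col8a2 they made 19 chains (45.2%) whose group means were below that median in all cell types, against 39.9% of all genes. Of the 16 uncalled chains, Col9a3, Col20a1, Col23a1 and Col24a1 had a limma adjusted p under 0.05 in at least 1 comparison and missed the minimum size. A chain that was not called is not shown to be absent or equal between cell types.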

How the data were processed

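RNA of each sample had been hybridised to an Affymetrix whole-genome mouse array. The deposited values are linear probe set intensity, made by the authors with GCOS 1.4 per the submitters' processing notes, whose background and scaling settings are not given in the sources used here. Removing 64 control probe sets kept 45037, and 34945 of them named a single gene. No detection calls were used. The log2(intensity + 16) values were quantile normalised, and the brightest probe set by mean over the 8 arrays stood for each of 18193 genes. All arrays entered a single linear model in limma 3.58.1 (R 4.3.3) with a variance trend, with Benjamini-Hochberg adjustment over all genes, and the spread was estimated over all groups. Alternatives covered scaling, the pseudocount, the choice of probe sets, filters, thresholds, a replicate block and leaving out each array. The procedure was tested on simulated data. Any chain could be named, and from each list up to 3 called genes in each direction for a comparison. Members, lists and tests were chosen with earlier results of these data known.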

Additional observations from a re-analysis of the deposited data

How the results depend on the processing

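No called difference of a chain changed sign under any of the alternatives run. The 12 chains called between NPC and ES cells became 3 with a pseudocount of 64 (1 higher and 2 lower), where the share of all genes called was 14.4% in place of 22.9%. With a minimum difference of 2 they became 2 (0 higher and 2 lower), where that share was 8.29%. For MEF minus ES, the 3 lower chains became 1 with a pseudocount of 64 and 0 with a minimum difference of 2. For MEF minus NPC, 0 lower chains became 1 with median centring, with trimmed mean scaling and with the replicate block, and 2 with a pseudocount of 1. Leaving out each array gave 0 to 1 lower chains there, and totals of 11 to 12 for NPC minus ES, 25 to 26 for MEF minus ES and 21 to 23 for MEF minus NPC. The replicate block gave 13, 25 and 23 chains in these comparisons. Over all genes, same-numbered arrays did not deviate together from their group means (correlations between -0.02 and 0.02). With 2 or 3 arrays per group, these correlations cannot show whether same-numbered arrays shared handling. At the deposited scaling, which shifted the median of all genes by 0.32 towards MEF over ES cells and 0.43 over NPC, 79.3% and 87.5% of all calls were higher in MEF, against 48.9% and 56.9% with quantile normalisation, and the chains called numbered 26 and 25. With median centring 65.1% and 74.1% of all calls were higher in MEF. The filter on probe set suffixes, which removed _a_at probe sets as well as those of shared sequence, left 38 chains measured.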
